A study of Mus musculus with 10 samples.

Results

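The genes described here encode the core of the Wnt signalling pathway, read in sorted neural crest cells of mouse embryos that did or did not make a stabilised p53, a transcription factor of the stress response. They were chosen by name from the 49671 genes of the deposited count table, which gave 60 genes. Among them are 19 Wnt ligands, 10 Frizzled receptors and the 2 Lrp co-receptors Lrp5 and Lrp6. A further 9 encode R-spondins, Lgr receptors or the ubiquitin ligases Rnf43 and Znrf3, and 10 encode secreted inhibitors. The last 2 sets are 6 cytoplasmic components and 4 nuclear effectors. Of the 60 genes, 54 had enough counts to be tested, and these 54 held between 143 and 24318 counts over all libraries.

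Each of the 10 libraries came from the GFP-positive cells sorted from 1 embryo at embryonic day 10.5. The strain background was mixed, of 129/Sv and C57BL/6. The 5 control embryos were Wnt1Cre;R26mTmG;p53+/+. The 5 p53_activated embryos were Wnt1Cre;R26mTmG;p53LSL-25,26/+, and so carried 1 normal and 1 engineered Trp53 allele, the latter with changes at residues 25 and 26 that Cre releases by removing a stop cassette. All embryos of both groups carried the Wnt1Cre transgene, in which regulatory sequence of the Wnt1 gene drives the recombinase in the dorsal neural tube and its neural crest progeny, and the R26mTmG reporter, which turns green after recombination. The sort could therefore hold neural tube cells beside neural crest, and whether the transgene adds to the counts of Wnt1 itself was not tested.

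Wnt proteins are secreted lipid-modified ligands that bind a Frizzled receptor together with Lrp5 or Lrp6. Binding stops a cytoplasmic complex built on Axin and Apc from marking beta-catenin for destruction, and beta-catenin then enters the nucleus and acts with the TCF/LEF proteins on target genes, among them Axin2, Nkd1, Lef1, Rnf43 and Znrf3, several of which feed back on the pathway. In the embryo, Wnt1 and Wnt3a from the dorsal neural tube expand the neural crest and its precursors, and Wnt signals later act on crest cell fate.

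Library totals ran from 12368058 to 23514828 counts in control and from 14644162 to 28379562 in p53_activated. The labels were checked on Cdkn1a, a direct p53 target whose product p21 blocks the cell cycle. It stood at 5.82 to 9.57 TMM-scaled CPM (counts relative to library size) in control and at 90.8 to 117 CPM in p53_activated, a log2 fold change of 3.73 ± 0.14 (SE, edgeR adjusted p = 1.74e-10). Neural crest markers were found in every library, with a summed level of 347 to 426 CPM in control and 277 to 375 CPM in p53_activated, and neural tube progenitor markers were found beside them at 772 to 1250 and 936 to 1290 CPM. Most of the progenitor sum came from Nes, at 821 ± 177 CPM (mean ± SD) in control and 898 ± 118 CPM in p53_activated. Hes5 was next at 88.1 ± 21.2 and 91.7 ± 17.4 CPM, so the 2 sums do not compare amounts of the 2 tissues. In bulk samples such as these, fewer cells of a type and less RNA per cell cannot be told apart. Controls 1 and 2 stood apart in the ratio of the embryonic globins Hbb-y to Hbb-bh1, at 4.97 and 2.69 against 1.59 to 2.08 in the other libraries. In p53_activated 4, the longest 25% of genes had a median deviation from the average library of 0.23 and the shortest 25% of -0.16 on the log2 scale, and p53_activated 5 leaned the same way, with 0.096 for its longest 25%.

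The groups were compared gene by gene with the quasi-likelihood test of edgeR over 14528 genes, and a gene is said to have risen or fallen where its Benjamini-Hochberg adjusted p was under 0.05. Fold changes are p53_activated over control on the log2 scale, with their standard error (SE). By this rule 5 of the 54 tested Wnt pathway genes changed, which is 9.26% beside 7.23% of all tested genes. Axin2, Lrp5 and Fzd10 rose, 5.56% of the members beside 4.49% of all genes, and Sfrp5 and Lef1 fell, 3.7% beside 2.74%. The share that changed was thus close to that of the transcriptome at large. These shares over all genes also stand beside the counts by role and by list given below. Over the same 14528 genes, DESeq2 called 1676 and limma-voom 897. The 5 control and 5 p53_activated values did not overlap for 9 members, or 16.7% beside 8.07% of all genes: the 5 above and Apc, Sfrp2, Dkk2 and Wnt3a. Unadjusted p was under 0.05 for 17 members (31.5%, beside 22.6% of all genes). The median size of the log2 fold change without its sign was 0.33 over the members and 0.22 over all genes, while the signed medians were -0.02 and -0.01. Of the members 25 were above and 29 below 0, beside 7065 and 7463 of all tested genes.

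**Figure D1:**
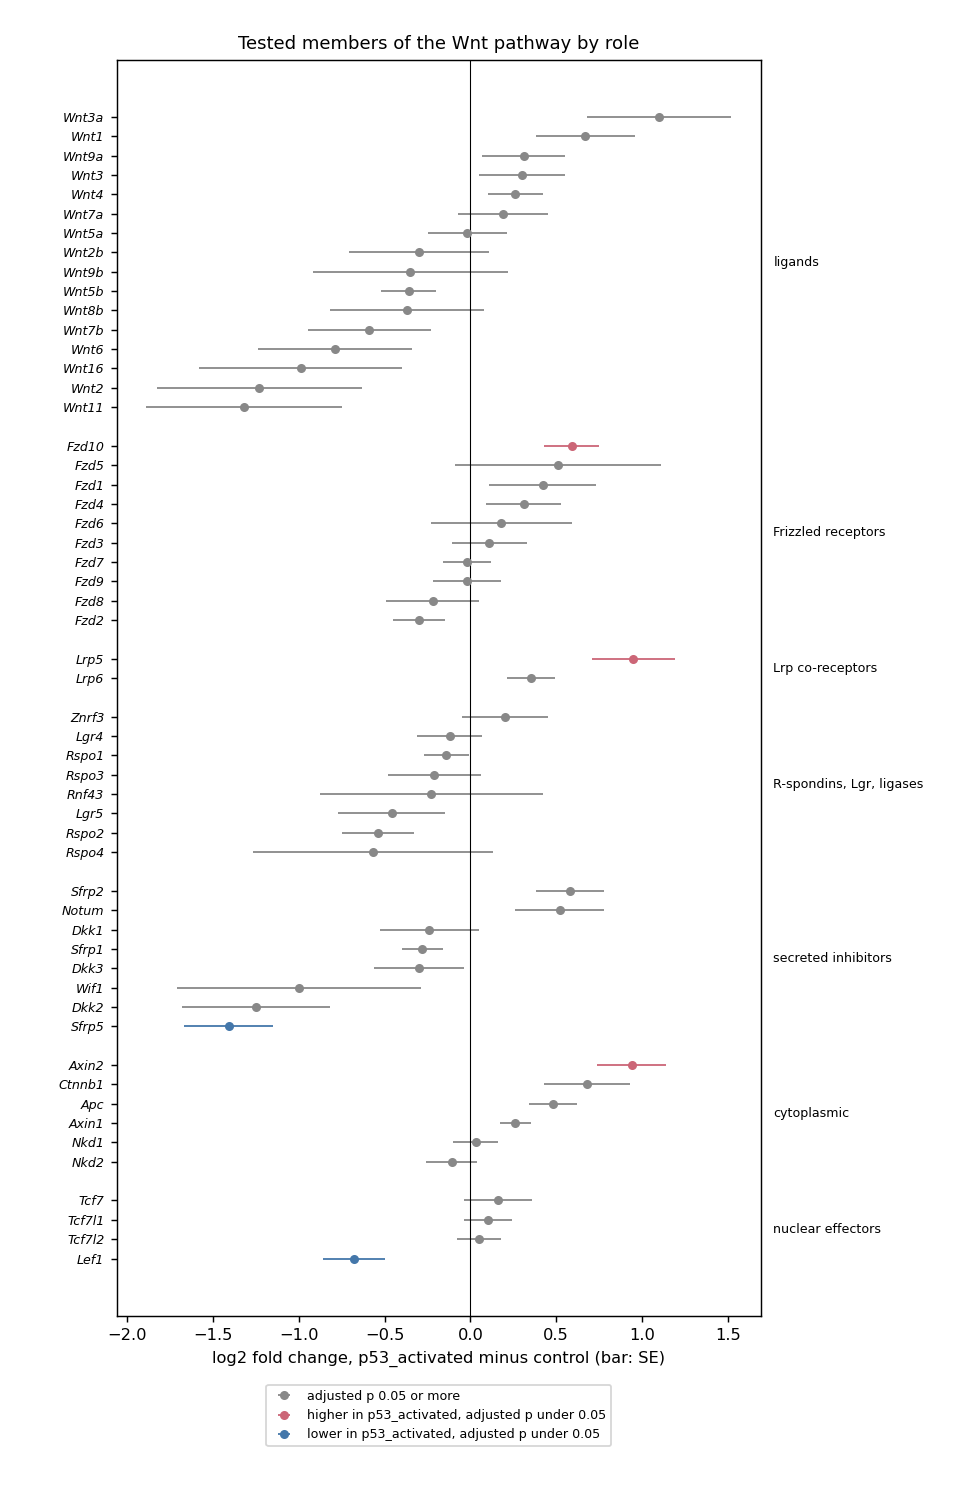
Log2 fold change of each of the 54 tested Wnt pathway genes (p53_activated over control, horizontal axis; bars are 1 SE), grouped by role, with the genes past an adjusted p of 0.05 marked. Axin2, Lrp5 and Fzd10 lie above 0 and Sfrp5 and Lef1 below it among the marked genes, and the ligands spread to both sides with none marked.

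Promoter sequences are shown for the called genes that RefSeq's windows on GRCm38.p6 cover, so that their composition can be compared. A window runs from 250 bases before to 50 bases after a transcript's start. That start is RefSeq's and can differ from the GENCODE M21 gene positions given below. The Fzd10 window lies wholly inside the GENCODE span of the gene, and the Lef1 window shown ends before the GENCODE span begins. Of the 60 members, 39 had a window (49 windows in all) and 21, Lrp5 among them, had none. Capitals mark the TCF/LEF core CTTTG, searched on both strands. The Axin2 window is at chr11:108920099-108920398 on the plus strand, the Fzd10 window at chr5:128600856-128601155 on the plus strand, the Lef1 window (the first of 4) at chr3:131110047-131110346 on the plus strand and the Sfrp5 window at chr19:42202203-42202502 on the minus strand.
Axin2: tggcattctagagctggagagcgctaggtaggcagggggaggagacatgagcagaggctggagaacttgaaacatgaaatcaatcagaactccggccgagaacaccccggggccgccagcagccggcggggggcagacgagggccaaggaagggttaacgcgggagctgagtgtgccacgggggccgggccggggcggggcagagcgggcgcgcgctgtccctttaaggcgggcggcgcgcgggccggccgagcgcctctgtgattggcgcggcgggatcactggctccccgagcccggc
Fzd10: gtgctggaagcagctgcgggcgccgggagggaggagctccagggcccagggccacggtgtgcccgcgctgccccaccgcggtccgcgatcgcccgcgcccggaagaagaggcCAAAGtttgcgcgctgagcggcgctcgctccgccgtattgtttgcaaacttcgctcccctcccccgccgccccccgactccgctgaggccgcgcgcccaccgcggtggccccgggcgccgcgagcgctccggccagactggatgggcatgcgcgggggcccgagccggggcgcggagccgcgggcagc
Lef1: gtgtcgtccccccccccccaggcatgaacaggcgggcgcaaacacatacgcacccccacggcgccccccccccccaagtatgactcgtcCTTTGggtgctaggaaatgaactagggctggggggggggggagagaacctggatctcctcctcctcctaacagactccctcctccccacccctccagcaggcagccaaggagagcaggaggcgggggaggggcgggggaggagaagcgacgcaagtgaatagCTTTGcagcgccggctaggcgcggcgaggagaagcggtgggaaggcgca
Sfrp5: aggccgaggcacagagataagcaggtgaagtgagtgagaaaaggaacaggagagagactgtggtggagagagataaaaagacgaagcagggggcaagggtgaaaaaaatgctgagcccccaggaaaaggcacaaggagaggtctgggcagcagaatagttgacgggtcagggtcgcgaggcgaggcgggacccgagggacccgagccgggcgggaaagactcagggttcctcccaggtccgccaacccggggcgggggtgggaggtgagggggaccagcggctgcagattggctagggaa
The 4 windows shown were above the median of all windows in GC and CpG, with 70.0% GC and 31 CpG in Axin2, 77.7% and 45 in Fzd10, 67.3% and 18 in Lef1 and 61.3% and 15 in Sfrp5, beside medians of 52.7% and 7 over all windows. This holds for the Lef1 start shown: at the 2 Lef1 starts farthest downstream, the windows held 51.7% GC with 8 CpG and 43.7% with 5. The core was present in the windows of Fzd10 (1 match) and Lef1 (2 matches, and 1 to 3 at its other starts) and absent from those of Axin2 and Sfrp5. It occurred in 21 of the 49 member windows (42.9%) and in 53.9% of all 32851 windows. The longer forms CTTTGAT and CTTTGAA, which contain the core, occurred in 3 member windows (6.12%), those of Dkk1, Wnt11 and Wnt5b, and in 8.65% of all windows. The p53 half-site occurred in 1 member window (2.04%), that of Wnt11, and in 8.36% of all windows. These matches are letters in a window and say nothing of binding.

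Ligands came first in order of the pathway. None of the 16 tested ligands passed the edgeR test. At an unadjusted p under 0.05 there were 4 (Wnt1, Wnt3a, Wnt5b and Wnt11), and DESeq2 and limma-voom called 0 each. The median log2 fold change of the ligands was -0.32, with 6 above and 10 below 0. Levels between genes are compared as CPM per kilobase of exon. On that scale Wnt4, known from kidney, gonad and dorsal neural tube, was the most abundant ligand in control at 14.7 ± 3.99 (SD, n = 5), followed by Wnt1 at 8.67 ± 4.88, Wnt5b at 5.92 ± 0.987 and Wnt7b at 5.23 ± 1.21. At the other end of the tested ligands stood Wnt2b at 0.284 ± 0.0784 and Wnt9b at 0.206 ± 0.121. Every ligand overlapped in its control range with the next one in this order, so neighbouring ranks did not differ beyond the spread between embryos. Divided by the longest transcript, Wnt7b (7.54) stood above Wnt5b (6.62).

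**Figure D2:**
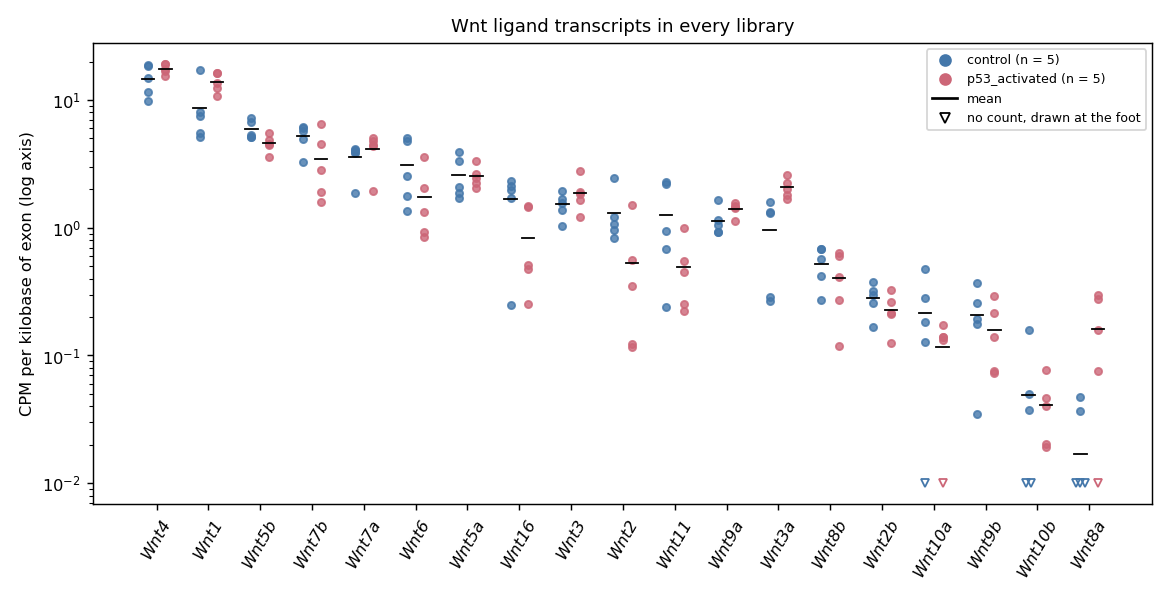
Level of each of the 19 Wnt ligands in every library (vertical log axis, CPM per kilobase of exon), ordered by the control mean, with control and p53_activated libraries side by side and libraries at 0 drawn at the foot. Wnt4 and Wnt1 stand at the left with control means of 14.7 and 8.67, and neighbouring ligands overlap throughout.

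Wnt3a and Wnt1, the dorsal neural tube ligands that expand the crest, were the 2 ligands with the highest fold changes. Wnt3a (ENSMUSG00000009900, chr11:59248033-59290752, minus strand) was at 0.739, 0.786, 3.61, 4.40 and 3.64 CPM in controls 1 to 5 and at 5.58, 4.62, 7.20, 6.16 and 4.99 CPM in p53_activated 1 to 5. The groups did not overlap, and controls 1 and 2 were far below the other 3. Its log2 fold change of 1.10 ± 0.42 missed the threshold (edgeR adjusted p = 0.132) and was 0.56 (edgeR adjusted p = 0.236) without controls 1 and 2. Wnt1 (ENSMUSG00000022997, chr15:98789857-98793837, plus strand) was at 13.1, 12.3, 40.7, 19.3 and 17.8 CPM in control and at 39.0, 25.8, 38.7, 29.5 and 32.2 CPM in p53_activated. Control 3 was above every p53_activated library, and the other 4 controls were below all of them. The log2 fold change was 0.67 ± 0.29 (edgeR adjusted p = 0.201) with all libraries and 1.09 (edgeR adjusted p = 0.00192) without control 3. Controls 1 and 2 were the 2 lowest libraries, and without them it was 0.34 (edgeR adjusted p = 0.539). Roof plate and dorsal neural tube markers were read beside these ligands. Of 14 tested, 1 rose (Olig3, 0.85, edgeR adjusted p = 0.0237) and 13 had a fold change above 0, beside 7065 of all 14528 tested genes. The median of these markers was 0.38, and 0.25 without controls 1 and 2. The Olig3 call was lost without control 2, without p53_activated 5, without controls 1 and 2 and without p53_activated 4 and 5. The summed level of these markers was 285 to 395 CPM in control, highest in control 3, and 321 to 392 CPM in p53_activated. No marker was at 0 in every library. Msx1 was the largest part of the sum, at 144 ± 29.3 CPM in control and 125 ± 26.6 CPM in p53_activated. It was also the 1 tested marker with a fold change below 0 (-0.20 ± 0.16), so the sum leans on a gene that lay the other way. The part of these cells in the Wnt1 and Wnt3a values was not tested.

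A second set of ligands, Wnt2, Wnt6 and Wnt7b, was low in p53_activated 1 to 3. Wnt16, given further below, was also low in these libraries, and in control 1. Wnt7b, a ligand made by many epithelia, was at 24.2, 28.2, 15.9, 29.7 and 30.2 CPM in control and at 7.85, 9.35, 13.8, 22.2 and 31.7 CPM in p53_activated. The 3 lowest libraries were p53_activated 1, 2 and 3, while p53_activated 4 and 5 lay within or above the control range. Its log2 fold change was -0.59 ± 0.36 (edgeR adjusted p = 0.371), and -1.29 (edgeR adjusted p = 0.00691) without p53_activated 4 and 5. Wnt2 was at 1.88, 2.75, 2.16, 2.42 and 5.54 CPM in control and at 0.275, 0.263, 0.786, 3.42 and 1.25 CPM in p53_activated. Here p53_activated 4 alone reached the control range. The log2 fold change was -1.23 ± 0.60 (edgeR adjusted p = 0.238), -2.19 (0.0219) without p53_activated 4 and -2.72 (0.0122) without p53_activated 4 and 5. Wnt6, made by surface ectoderm, was at 3.87, 5.58, 2.99, 10.4 and 11.0 CPM in control and at 1.86, 2.89, 2.03, 7.90 and 4.51 CPM in p53_activated (log2 fold change -0.79 ± 0.45, edgeR adjusted p = 0.338). Within each group it was highest in replicates 4 and 5. The summed level of 12 epithelial markers was 105, 92.2, 104, 205 and 208 CPM in control and 70.9, 73.7, 52.9, 145 and 118 CPM in p53_activated, also highest in replicates 4 and 5 of each group. The same held for the summed levels of the muscle and somite, endothelial and erythroid markers, so the pattern was not particular to epithelial markers. Of the 11 epithelial markers tested, edgeR called 0, as did DESeq2 and limma-voom, with 2 at an unadjusted p under 0.05 and a median log2 fold change of -0.78. Without p53_activated 4 and 5, 1 was called lower and the median was -1.52. With replicate number as a term, edgeR called 5 lower. The part of epithelial, muscle, endothelial or erythroid cells in these ligand values was not tested.

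Among the ligands known for signalling without beta-catenin, Wnt11 was at 9.15, 9.36, 0.997, 3.89 and 2.84 CPM in control and at 1.86, 2.26, 0.916, 4.12 and 1.04 CPM in p53_activated. Controls 1 and 2 were the 2 highest libraries, and the other controls lay within the p53_activated range. Its log2 fold change was -1.32 ± 0.57 (edgeR adjusted p = 0.193). Wnt5a showed the same split within control, at 30.8 and 25.9 CPM in controls 1 and 2 and 13.3 to 16.3 CPM in the other 3, with a log2 fold change of -0.02 ± 0.23. Wnt5b had a log2 fold change of -0.36 ± 0.16 (edgeR adjusted p = 0.193). Wnt16 was at 1.08 CPM in control 1 and at 7.47 to 10.2 CPM in the other controls. It was at 2.06, 1.10 and 2.23 CPM in p53_activated 1 to 3 and at 6.39 and 6.45 CPM in p53_activated 4 and 5 (log2 fold change -0.99 ± 0.59, edgeR adjusted p = 0.36). Of the other tested ligands, Wnt3, Wnt4, Wnt7a and Wnt9a had log2 fold changes between 0.19 and 0.31, and Wnt2b, Wnt8b and Wnt9b between -0.37 and -0.30, none past the threshold by edgeR.

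Of the 10 Frizzled receptors, all of which were tested, 1 rose and none fell, with 6 above and 4 below 0 and a median log2 fold change of 0.15. Fzd2 was the most abundant in control at 41.8 ± 9.46 CPM per kilobase, above Fzd9 at 6.72 ± 0.681 and Fzd7 at 6.26 ± 0.863. Fzd2 stood at 33.9 ± 5.43 CPM per kilobase in p53_activated, with a log2 fold change of -0.30 ± 0.15 that missed the threshold (edgeR adjusted p = 0.236). Fzd10, a receptor known from the dorsal neural tube (ENSMUSG00000081683, chr5:128600844-128604093, plus strand), was at 14.0, 9.36, 14.9, 15.0 and 15.2 CPM in control and at 16.9, 18.8, 20.3, 22.4 and 24.7 CPM in p53_activated. The groups did not overlap, and control 2 was the lowest library. The mean went from 13.7 ± 2.47 to 20.6 ± 3.05 CPM, which is a log2 fold change of 0.59 ± 0.16 (edgeR adjusted p = 0.0362). The call held in 3 of the 10 fits that left out 1 library, those without control 3, control 5 or p53_activated 1. It was lost in the other 7 (adjusted p up to 0.0987, without p53_activated 5) and also without p53_activated 4 and 5 together (0.45, adjusted p = 0.17). Further losses were without controls 1 and 2 (0.45, adjusted p = 0.112), with total count scaling (adjusted p = 0.0502) and with embryo sex as a term (adjusted p = 0.0569). In all, 11 of 23 alternatives did not call Fzd10. The other 8 Frizzled genes had log2 fold changes between -0.22 (Fzd8) and 0.51 (Fzd5, the lowest of the receptors at 0.0972 ± 0.0731 CPM per kilobase in control). An opposite-strand gene shares 17.83% of the exon sequence of Fzd5.

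Both Lrp co-receptors, which Frizzled needs to signal through beta-catenin, had fold changes above 0. Lrp5 (ENSMUSG00000024913, chr19:3584828-3686564, minus strand) was at 7.51, 9.75, 6.56, 8.61 and 9.69 CPM in control and at 10.1, 10.4, 15.0, 23.6 and 21.8 CPM in p53_activated. No p53_activated library overlapped with control, but p53_activated 1 and 2 lay just above it and p53_activated 4 and 5 far above. The mean went from 8.42 ± 1.39 to 16.2 ± 6.28 CPM, and the log2 fold change was 0.95 ± 0.24 (edgeR adjusted p = 0.0257). The call was lost in 5 of the 10 fits that left out 1 library, those without control 1, 3 or 4 or p53_activated 4 or 5 (adjusted p up to 0.0761), and without p53_activated 4 and 5 the log2 fold change was 0.51 (adjusted p = 0.189). Further losses were without controls 1 and 2 (adjusted p = 0.0923) and with limma-voom (adjusted p = 0.0523). In all, 8 of 23 alternatives did not call Lrp5. Lrp6 was the more abundant of the pair, at 2.33 ± 0.233 CPM per kilobase in control beside 0.865 ± 0.143 for Lrp5. It was at 26.7 to 35.0 CPM in control and 31.0 to 53.8 CPM in p53_activated, with overlap, and its log2 fold change of 0.35 ± 0.14 missed the threshold (edgeR adjusted p = 0.15).

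R-spondins bind Lgr receptors and so hold Rnf43 and Znrf3, which remove Frizzled from the cell surface, in check. Of 8 tested genes of this branch, edgeR, DESeq2 and limma-voom each called 0, with 1 (Rspo2) at an unadjusted p under 0.05. A fold change below 0 was seen in 7 of the 8, with a median of -0.22. Rspo1 was the most abundant at 9.81 ± 1.1 CPM per kilobase in control and 8.88 ± 0.984 in p53_activated, ahead of Rspo3 at 2.43 ± 0.348 and Rspo2 at 2.25 ± 0.481 in control. Divided by the longest transcript, Rspo2 was at 3.44 and Rspo3 at 2.44, so the order of these 2 depends on the length used. Rspo2 was at 12.3, 14.5, 10.5, 7.91 and 12.1 CPM in control and at 9.02, 10.1, 6.61, 8.33 and 5.34 CPM in p53_activated, with a log2 fold change of -0.54 ± 0.21 (edgeR adjusted p = 0.134). The ranges overlapped. Znrf3, itself a feedback target, was the 1 gene of the branch above 0, at 0.20 ± 0.25, while Rnf43 was at -0.23 ± 0.65 with 146 counts in all. Lgr5 was at 5.63 and 4.64 CPM in controls 1 and 2 and 2.17 to 3.28 CPM in the other 3 controls, beside 2.05 to 3.12 CPM in p53_activated.

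Of the 8 tested secreted inhibitors, 1 fell and none rose by edgeR, 6 had a fold change below 0 and the median was -0.29. Sfrp5, a decoy that binds Wnt proteins through a domain related to that of Frizzled (ENSMUSG00000018822, chr19:42197971-42202252, minus strand), was at 3.87, 4.95, 5.27, 4.66 and 5.97 CPM in control and at 1.51, 1.52, 1.64, 2.40 and 2.15 CPM in p53_activated. Every p53_activated library was below every control. The mean went from 4.95 ± 0.777 to 1.85 ± 0.407 CPM, a fold of 0.376 and a log2 fold change of -1.41 ± 0.26 (edgeR adjusted p = 0.00314). The gene held 413 counts over the control libraries and 180 over the p53_activated ones. It was the 1 member called under all 23 alternatives tried, with log2 fold changes of -1.65 to -1.30 and adjusted p of 8.16e-06 to 0.0118.

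**Figure D3:**
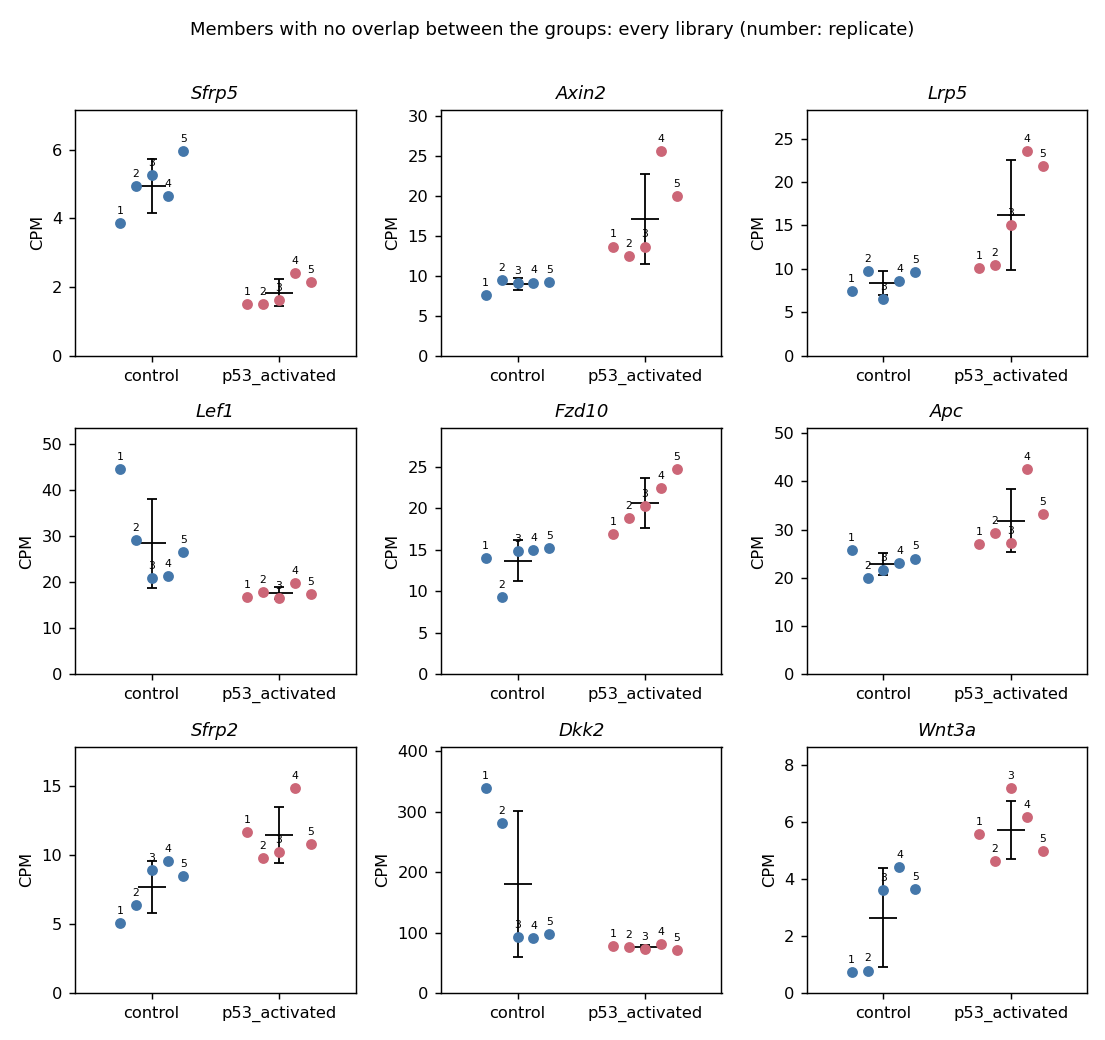
CPM in each library (points, numbered by replicate, with group mean and SD) for the 9 members whose control and p53_activated libraries do not overlap. Sfrp5 is low in every p53_activated library, Axin2 and Lrp5 are highest in p53_activated 4 and 5, and Dkk2 and Lef1 are highest in controls 1 and 2.

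Dkk2, which binds Lrp co-receptors, was the most abundant inhibitor and, with Fzd2, among the most abundant members, at 48.7 ± 32.6 CPM per kilobase in control and 20.5 ± 1.04 in p53_activated. In CPM, Dkk2 (ENSMUSG00000028031, chr3:132085292-132180304, plus strand) was at 340, 282, 91.9, 90.4 and 97.8 in control and at 78.3, 75.8, 73.3, 80.8 and 71.1 in p53_activated. The groups did not overlap, and controls 1 and 2 were well above the other 3 controls, which lay close above the p53_activated libraries. The log2 fold change was -1.25 ± 0.43 (edgeR adjusted p = 0.123; DESeq2 adjusted p = 0.037) and -0.30 (edgeR adjusted p = 0.0604) without controls 1 and 2. Wif1, a secreted protein that binds Wnt ligands, was also highest in those 2 controls, at 3.70 and 3.22 CPM beside 0.332 to 1.15 CPM in the others. Sfrp2 (ENSMUSG00000027996, chr3:83766321-83774316, plus strand) lay the other way from Sfrp5, at 5.06, 6.37, 8.89, 9.57 and 8.52 CPM in control and at 11.7, 9.82, 10.2, 14.9 and 10.8 CPM in p53_activated. Its groups did not overlap, but its log2 fold change of 0.58 ± 0.20 missed the threshold (edgeR adjusted p = 0.0928) and was 0.35 (edgeR adjusted p = 0.33) without controls 1 and 2, the 2 lowest libraries. Of its exon sequence, 16.12% is shared with an opposite-strand gene. Sfrp1, the most abundant of the Sfrp genes at 17.8 ± 3.1 CPM per kilobase in control, had a log2 fold change of -0.28 ± 0.12 (edgeR adjusted p = 0.184). Dkk1 and Dkk3 were at -0.24 ± 0.29 and -0.30 ± 0.26, and Notum, an enzyme that strips the lipid from Wnt proteins, at 0.52 ± 0.26 (edgeR adjusted p = 0.246). Opposite-strand genes share 38.12% of the exon sequence of Notum.

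Of the 6 cytoplasmic components, all tested, 1 rose by edgeR and 5 had a fold change above 0, with a median of 0.37. DESeq2 called 3 and limma-voom 1. Axin2, which both builds the destruction complex and is a widely used readout of beta-catenin signalling (ENSMUSG00000000142, chr11:108920349-108950783, plus strand), was at 7.62, 9.52, 9.18, 9.19 and 9.25 CPM in control and at 13.7, 12.5, 13.7, 25.7 and 20.0 CPM in p53_activated. All p53_activated libraries were above all controls, and p53_activated 4 and 5 were the 2 highest. The mean went from 8.95 ± 0.757 to 17.1 ± 5.65 CPM, which is a log2 fold change of 0.94 ± 0.20 (edgeR adjusted p = 0.00888). The call held in 22 of 23 alternatives, among them each fit without 1 library. It was lost without p53_activated 4 and 5 together, where the log2 fold change was 0.58 (adjusted p = 0.0547).

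Apc (ENSMUSG00000005871, chromosome 18, 34220924 to 34322552, plus strand), the scaffold on which beta-catenin is marked, was at 25.7, 20.0, 21.6, 23.1 and 24.0 CPM in control and at 27.0, 29.3, 27.2, 42.5 and 33.2 CPM in p53_activated. The groups did not overlap, and p53_activated 4 and 5 were again highest. Its log2 fold change was 0.48 ± 0.14 (edgeR adjusted p = 0.0512), 0.29 without those 2 libraries and 0.28 (adjusted p = 0.156) after a trend on gene length was removed. Ctnnb1, the gene of beta-catenin itself (ENSMUSG00000006932, chr9:120929216-120960507, plus strand), was at 32.0, 45.9, 43.5, 55.5 and 66.5 CPM in control and at 55.9, 62.0, 57.1, 125 and 88.8 CPM in p53_activated. The ranges overlapped, and p53_activated 4 and 5 stood above every other library. The log2 fold change was 0.68 ± 0.25 (edgeR adjusted p = 0.135; DESeq2 adjusted p = 0.0293) and 0.27 without p53_activated 4 and 5. Overlapping genes share 15.06% of its exon sequence. Axin1 was the most abundant of the set at 15.4 ± 1.45 CPM per kilobase in control, with a log2 fold change of 0.26 ± 0.09 (edgeR adjusted p = 0.101). The feedback inhibitors Nkd1 and Nkd2 were at 0.03 ± 0.13 and -0.11 ± 0.15. Among the feedback genes Axin2, Nkd1, Nkd2, Rnf43 and Znrf3, Axin2 was thus the 1 that passed the test. Lef1, also named above as a target of beta-catenin, passed in the other direction (-0.68 ± 0.18, edgeR adjusted p = 0.0341).

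Of the 4 TCF/LEF genes, which carry beta-catenin to DNA, 1 fell and none rose by edgeR. Lef1 (ENSMUSG00000027985, chr3:131110471-131224356, plus strand) was at 44.5, 29.1, 20.8, 21.4 and 26.5 CPM in control and at 16.7, 17.9, 16.6, 19.8 and 17.5 CPM in p53_activated. The groups did not overlap, and control 1 was far above the rest. The mean went from 28.5 ± 9.59 to 17.7 ± 1.26 CPM, which is a log2 fold change of -0.68 ± 0.18 (edgeR adjusted p = 0.0341). The call held without control 3, control 4 or p53_activated 4 and was lost in the other 7 fits that left out 1 library (adjusted p up to 0.0799), and without controls 1 and 2 the log2 fold change was -0.37 (adjusted p = 0.152). Further losses were with limma-voom (adjusted p = 0.0801), embryo sex as a term (0.062), the replicate block (0.0588) and without p53_activated 4 and 5 (0.0869). In all, 12 of 23 alternatives did not call Lef1. An opposite-strand gene shares 13.75% of the exon sequence of Lef1. Tcf7, Tcf7l1 and Tcf7l2 had log2 fold changes of 0.16 ± 0.20, 0.10 ± 0.14 and 0.05 ± 0.13. In control, Tcf7l2 stood at 6.09 ± 1.19 CPM per kilobase of all annotated exons, Tcf7l1 at 4.86 ± 0.531, Lef1 at 3.24 ± 1.09 and Tcf7 at 2.77 ± 0.634. Divided by the longest transcript instead, Tcf7l2 was at 14.4, Lef1 at 7.79 and Tcf7l1 at 6.27, so the order of Lef1 and Tcf7l1 depends on the length used.

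Several members varied within a group in the libraries that stood apart. Library p53_activated 4 was the highest of its group for 27 of 54 members (50%), beside 28.8% of all tested genes. Controls 1 and 2 were the 2 highest controls for 11 members (20.4%, beside 21.2% of all tested genes), among them Dkk2, Lef1, Fzd2, Wnt11, Wnt5a, Wif1 and Lgr5. They were the 2 lowest for 12 members (22.2%, beside 18.8% of all tested genes), among them Wnt3a, Wnt1, Wnt4, Sfrp2, Fzd10 and Tcf7. With the trend on gene length removed, 3 members rose and 2 fell. Axin2 was at 0.91 (edgeR adjusted p = 0.00814), Lrp5 at 0.80 (0.0344), Fzd10 at 0.63 (0.026) and Lef1 at -0.79 (0.011), and Sfrp5 was called too. The part of the globin ratio in the member values was not tested, nor that of the gene-length lean beyond this fit. Without p53_activated 4 and 5, no member rose and 3 fell (Sfrp5, Wnt2 and Wnt7b). Without controls 1 and 2, 1 rose (Axin2) and 1 fell (Sfrp5).

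**Figure D4:**
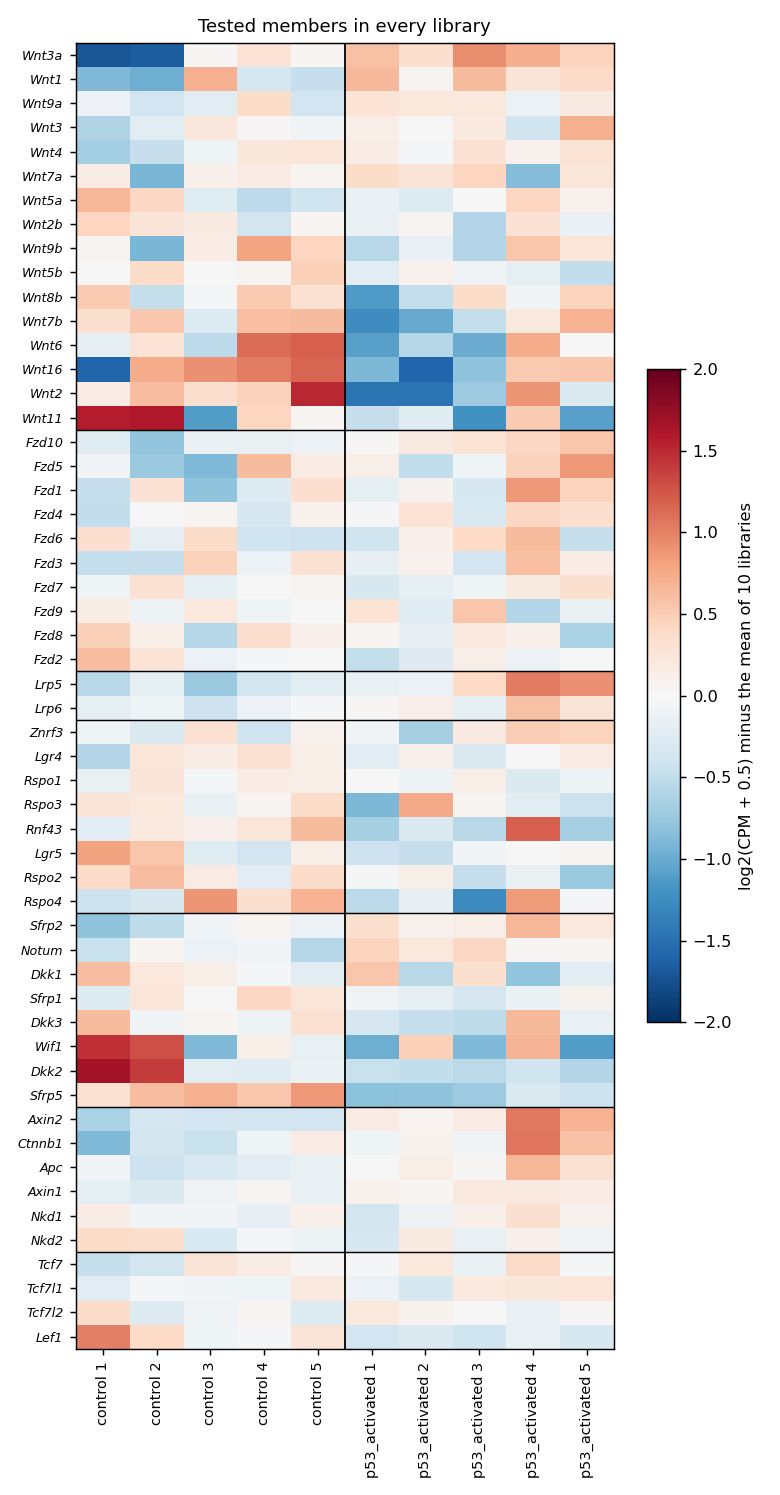
Log2 CPM of the 54 tested members (rows, by role) in the 10 libraries (columns) as the difference from each gene's mean over all libraries, with a pseudocount of 0.5 CPM (red above, blue below that mean). Controls 1 and 2 stand out for Dkk2, Wnt11 and Wif1, and p53_activated 4 is the highest of its group in 27 of the 54 rows.

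Other genes of the pathway were read in 5 lists, whose calls stand beside 4.49% of all tested genes higher and 2.74% lower by edgeR. Among 17 tested genes of Wnt secretion and extracellular modulation, 1 rose and none fell, with a median log2 fold change of 0.08. It was Gpc4, a cell surface glypican, which went from 9.05 ± 0.758 to 15.3 ± 0.7 CPM (0.76 ± 0.14, edgeR adjusted p = 0.00272). Porcn, the enzyme that adds the lipid to Wnt proteins, was at -0.67 ± 0.24 (edgeR adjusted p = 0.11). Among 23 tested genes of cytoplasmic transduction, 4 rose and none fell, with a median of 0.08. These were Tnks2, a tankyrase that marks Axin for destruction (0.41 ± 0.08, edgeR adjusted p = 0.00654), the casein kinase Csnk1g1 (0.69 ± 0.14, edgeR adjusted p = 0.00864), Ccdc88c (1.63 ± 0.38, edgeR adjusted p = 0.0229) and the Dishevelled gene Dvl3 (0.69 ± 0.20, edgeR adjusted p = 0.0497). Without p53_activated 4 and 5, Ccdc88c was at 0.88 (edgeR adjusted p = 0.1) and Dvl3 at 0.33 (edgeR adjusted p = 0.29), and neither passed. Of the 10 fits that left out 1 library, Dvl3 passed in 1, the fit without p53_activated 1 (adjusted p up to 0.116 in the others), and Ccdc88c in 7, being lost without control 1, 2 or 4 (adjusted p up to 0.0605). After the trend on gene length was removed, Tnks2 was at 0.28 (edgeR adjusted p = 0.0734) and Dvl3 at 0.63 (edgeR adjusted p = 0.0558), and neither passed.

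Among 18 tested nuclear cofactors, 1 fell, Pygo1, which binds beta-catenin through an adaptor (128 ± 29.4 to 78.9 ± 7.37 CPM, -0.70 ± 0.13, edgeR adjusted p = 0.00443), and 0 genes rose; the list's median was 0.14. DESeq2 called 5, 4 higher and 1 lower, and edgeR without p53_activated 1 also called 4 higher and 1 lower. Ep300, a histone acetyltransferase, was at 0.49 ± 0.15 (edgeR adjusted p = 0.0546). The list of beta-catenin targets, 22 tested, holds some members too: 3 rose and 1 fell, with a median of 0.04. Beside Axin2 and Lef1, the risen genes were Ccnd1, which encodes cyclin D1 and went from 39.2 ± 5.58 to 70.9 ± 13.5 CPM (0.85 ± 0.14, edgeR adjusted p = 0.00109), and the receptor gene Tnfrsf19 (27.4 ± 2.73 to 40.6 ± 3.59 CPM, 0.57 ± 0.11, edgeR adjusted p = 0.00575). Among 19 tested genes of planar cell polarity and Wnt co-receptors, 3 rose and none fell, with a median of 0.04. These were the polarity genes Scrib (50.5 ± 6.76 to 81.2 ± 11.8 CPM, 0.68 ± 0.12, edgeR adjusted p = 0.00225), Celsr1 (8.47 ± 2.76 to 23.8 ± 8.86 CPM, 1.49 ± 0.28, edgeR adjusted p = 0.00492) and Celsr2 (0.54 ± 0.14, edgeR adjusted p = 0.0305). Celsr2 was at 0.28 (adjusted p = 0.159) without p53_activated 4 and 5 and at 0.38 (adjusted p = 0.0572) with the length trend removed, and it passed in 4 of the 10 fits that left out 1 library, those without control 1 or p53_activated 1, 2 or 3. The list medians of 0.04 to 0.14 stood beside -0.01 over all genes. Without p53_activated 4 and 5 the calls were Gpc4, Tnks2, Csnk1g1, Ccnd1, Tnfrsf19, Scrib and Celsr1 upward and Pygo1 and the polarity gene Celsr3 downward.

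Markers of other cells moved between the groups as well, read beside 4.49% of all tested genes that rose and 2.74% that fell by edgeR. Of 12 neuron markers 9 fell, and their summed level was 737 to 947 CPM in control and 382 to 595 CPM in p53_activated, without overlap. Of 6 melanoblast and glial markers 3 fell (127 to 155 CPM and 59.5 to 94.1 CPM), and of 10 neural crest markers 2 fell. Arch mesenchyme markers summed to 575 to 983 CPM in control, highest in controls 1 and 2 at 877 and 983, and to 667 to 782 CPM in p53_activated, with 1 of 13 lower. Called by edgeR were 0 of 12 neural tube progenitor, 0 of 10 muscle and somite (86.2 to 148 and 69.8 to 115 CPM), 0 of 6 endothelial (7.63 to 34.0 and 9.88 to 28.6 CPM), 0 of 6 macrophage (10.5 to 72.7 and 25.2 to 53.9 CPM) and 0 of 8 erythroid markers (829 to 4490 and 502 to 6020 CPM). At an unadjusted p under 0.05 the muscle list held 4 genes and the other 4 of these lists 0, and DESeq2 called 2 muscle markers, limma-voom 1, and both called 0 in the other 4. No marker of any list was at 0 in every library. The part of these cells in the member values was not tested.

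The authors' deposited table calls 8 of the 54 members at an adjusted p under 0.05, 14.8% beside the 1624 genes (10.8%) it calls among 15089 with an adjusted p. These are the 5 above and Apc, Ctnnb1 and Dkk2, whose adjusted p in the authors' deposited table are 0.0220, 0.0266 and 0.0403. The remaining 6 members, Dkk4, Lgr6, Sfrp4, Wnt8a, Wnt10a and Wnt10b, held 5, 44, 74, 26, 67 and 30 counts over all 10 libraries and were not tested. Of these, Wnt8a had 3 counts over the control libraries and 23 over the p53_activated ones.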

How the data were processed

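RNA was measured in 5 control and 5 p53_activated libraries, each from 1 embryo, grouped by the genotype in the labels. The authors deposited untransformed read counts for each Ensembl gene, which were analysed without change; the depth was 12368058 to 28379562 counts per library. Tools named in the submitters' processing notes are DESeq2 1.14.1, HISAT2 2.0.4, HTSeq 0.6.1 and SAMtools 1.3.1, and the build is GRCm38. Which annotation release and strand setting were used is not given in the sources used here. Counts of overlapping or antisense genes are therefore uncertain. Per the file headers, a second deposited table holds the authors' comparison as a mean normalised count (a signal), p-values before and after adjustment, a log2 fold change with its error and a test statistic (a score).

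Genes were filtered with filterByExpr (minimum count 10, minimum total 15), scaled by TMM and tested with the robust quasi-likelihood test of edgeR 4.0.16 (R 4.3.3) over 14528 genes. All 10 libraries entered the fit, without covariates. Benjamini-Hochberg adjustment covered all tested genes, with a threshold of 0.05, and an adjusted p with no tool named comes from edgeR. The SE was taken as the log2 fold change over the root of the F statistic. Levels in CPM use TMM-scaled library sizes, with mean ± SD over 5 embryos. Exon lengths, positions and overlaps are from GENCODE M21. The test was checked on simulated counts. The members and the 5 pathway and 11 marker lists were chosen with earlier results of these data known. Full values are given for members that were called, did not overlap between groups or were called under an alternative. The 3 most abundant genes of each role, and the called and up to 3 leading genes of each pathway list, are described more briefly. Calls in the marker lists are given mostly as counts. Wnt5a, Wnt6, Wnt11, Wnt16, Wif1, Lgr5 and Olig3 were named after their values were seen. The alternatives were other scalings, filters, thresholds and lengths, limma-voom (limma 3.58.1), DESeq2 1.42.0, non-robust dispersions, embryo sex or replicate number as a term, and leaving out libraries. Embryo sex was inferred from these same counts, by Xist against the Y-linked genes Ddx3y, Uty, Kdm5d and Eif2s3y. This gave 2 female control and 3 female p53_activated embryos. A correction for gene length by lowess (span 0.3) was added after the data were seen.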

Additional observations from a re-analysis of the deposited data

Results flagged for a closer look

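Within each group of 5 libraries, a member was looked at again where its highest or lowest library stood off from the nearest other by more than 0.71 of the group's range. This held for 10 values among 108 groups (54 tested members in 2 groups), and chance alone gives about 1 in 20. Set apart as low were Axin2 in control 1 (7.62 CPM), Fzd10 in control 2 (9.36 CPM), Lgr4 in control 1 (7.11 CPM), Wnt7a in control 2 (5.98 CPM) and in p53_activated 4 (6.19 CPM), and Wnt9a in p53_activated 4 (3.79 CPM). Set apart as high were Wnt1 in control 3 (40.7 CPM), Wnt2 in control 5 (5.54 CPM), and Dkk3 (11.0 CPM) and Rnf43 (2.07 CPM) in p53_activated 4. Of the 10 values, 4 belong to p53_activated 4.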

How the results depend on the processing

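With all libraries and the settings above, 1050 genes changed, among them 3 members higher and 2 lower. DESeq2 called 1676 genes and 5 members higher, a threshold of 0.01 gave 375 genes with 1 member higher and 1 lower, and a threshold of 0.1 gave 1755 genes with 5 members higher. Members called lower numbered 1 with limma-voom and 1 with embryo sex as a term. Without controls 1 and 2, 656 genes, 1 member higher and 1 lower were called, and without p53_activated 4 and 5, 775 genes with 0 members higher. Leaving out 1 library at a time gave 636 to 1025 genes, 1 to 4 members higher and 1 to 3 lower. None of the 24 genes followed through these alternatives changed sign. They were picked for being called, or for groups that did not overlap, which left little room for a change of sign. Their constant sign is therefore no measure of stability. The members' median log2 fold change of -0.02 did change sign, to 0.04 without p53_activated 2 and 0.01 without controls 1 and 2. Without p53_activated 4 the members' calls went from 3 higher and 2 lower to 1 and 3. Upper quartile scaling left 51.7% of all calls higher, beside 62.1%. Same-numbered libraries did not deviate together (correlations of -0.053 to 0.113, and 1 of 5 correlated best with its own number), which does not meet the bar for pairing. Even so, the sums of epithelial, muscle and somite, endothelial and erythroid markers were highest in replicates 4 and 5 of both groups. With the replicate block, 804 genes were called, 5 members higher and 1 lower, and 5 of the 11 tested epithelial markers lower, beside 0 without it. Of 20 levels per kilobase, 7 moved by more than 1 SD with the longest transcript as length. Depth limits the 6 untested members most, and with 5 embryos per group and a biological coefficient of variation of 25.5%, fold changes of small size may go uncalled.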
